A study of Rattus norvegicus with 24 samples.

Results

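Abcb4, Aldh1l1, Vtcn1, Dhrs7c and Serpine2 are 5 genes that encode no sarcomere protein and whose signals were lower in rat extraocular muscle than in a rat limb muscle. They were chosen by that difference in these same arrays, so the difference between muscles is described here and not tested. Each of the 5 was matched by its symbol in the platform annotation, which found 5 probe sets, 1 per gene, among 7006 probe sets that name 1 gene. They are 5 of 4736 genes named in that way. Extraocular muscle (EOM) turns the eyeball in its socket, and extensor digitorum longus (EDL) is a fast muscle of the lower hindlimb that lifts the toes. Both muscles of Rattus norvegicus were profiled at 6, 18 and 30 months of age, with 4 arrays in each of 6 groups and 24 arrays in all. The series' design text says that each RNA sample combined tissue of 4 animals, and the spread behind each p-value is that between such pools. The labels name no strain, sex or treatment.

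The 5 proteins lie in different places in or around a cell. Aldh1l1, a cytosolic 10-formyltetrahydrofolate dehydrogenase, removes formyl units from the folate pool. Dhrs7c, a short-chain dehydrogenase, sits in the sarcoplasmic reticulum, the calcium store of striated muscle. Abcb4, an ATP-binding cassette transporter best known from the bile canaliculus of the liver, moves phosphatidylcholine to the outer leaflet of the membrane. Vtcn1, also called B7-H4, is a surface protein of the B7 family that restrains T cells. Serpine2, also called protease nexin-1, is a secreted inhibitor of thrombin and plasminogen activators.

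The stretches just before the annotated gene starts are shown because all 5 genes shared the direction of the muscle difference, which the choice of genes fixes. They are RefSeq sequences of assembly GRCr8 and run 5′ to 3′ on the strand of the gene, and RefSeq promoters were matched for 4 of the 5 genes. Each was cut to the bases outside the annotated span of its gene, and the Abcb4 stretch lies inside that span and is not shown. The Vtcn1 stretch is chr2:190941974-190942223 on the plus strand, the Aldh1l1 stretch is chr4:124616970-124617181 on the plus strand, and the Serpine2 stretch is chr9:88637253-88637452 on the minus strand. Capitals mark E-boxes (CANNTG), CCAAT boxes and GC boxes (GGGCGG), each on either strand. No TATAAA and no MEF2 motif was found in the 250 bases before the 4 starts. A start here is that of the RefSeq promoter, which can lie inside the annotated span of the gene.
Vtcn1: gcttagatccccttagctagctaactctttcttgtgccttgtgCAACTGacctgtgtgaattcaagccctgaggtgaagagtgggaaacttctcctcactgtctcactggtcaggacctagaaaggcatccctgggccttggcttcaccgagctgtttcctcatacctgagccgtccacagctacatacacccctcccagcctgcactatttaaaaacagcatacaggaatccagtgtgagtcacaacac
Aldh1l1: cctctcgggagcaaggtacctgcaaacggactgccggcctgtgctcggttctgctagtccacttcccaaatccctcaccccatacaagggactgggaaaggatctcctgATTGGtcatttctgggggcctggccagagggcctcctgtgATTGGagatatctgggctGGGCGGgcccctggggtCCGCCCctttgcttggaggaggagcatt
Serpine2: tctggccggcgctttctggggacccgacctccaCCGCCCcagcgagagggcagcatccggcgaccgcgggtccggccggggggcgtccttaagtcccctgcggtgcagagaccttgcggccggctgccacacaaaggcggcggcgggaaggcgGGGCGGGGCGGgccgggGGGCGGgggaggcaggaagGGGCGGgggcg
Vtcn1 held 1 E-box, Aldh1l1 held 2 CCAAT boxes and 2 GC boxes, and Serpine2 held 5 GC boxes in the bases shown, 2 of which share a base, and 6 in the 250 bases before its start. Abcb4 held 1 E-box and 1 GC box in the 250 bases before its start, which lie inside the annotated span of its gene. Among 33469 RefSeq promoters, the 250 bases before the start held an E-box in 65.5%, a CCAAT box in 34%, a GC box in 30.5%, TATAAA in 12.9% and a MEF2 motif in 2.96%. No single motif of the search was present in all 4 genes.

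The arrays had a common scale, with trimmed means of 494.9 to 498.0 units, and their median signals lay between 89.7 and 136.8 units. Spearman correlation with the other arrays of the group was lowest for EDL at 30 months replicate 1 (0.879) and for EDL at 6 months replicate 2 (0.884), and reached 0.954. The 3′ to 5′ signal ratio of the actin control averaged 1.31 to 1.41 over the EOM groups and 1.60 to 2.19 over the EDL groups. It ran from 1.16 to 3.54 over the 4 EDL arrays at 6 months. The widest range in EOM was 1.13 to 1.62, at 18 months. The part of this ratio in the age changes below was not tested. Tests across all probe sets used limma, which fits linear models with a moderated variance, and a gene passed at an adjusted p under 0.05. All 5 genes of the extraocular muscle list passed as higher in EOM, where their summed signal was 56960.4 to 91007.3 units, against 1564.5 to 6667 units in EDL. All 17 genes of the fast fibre list passed as lower in EOM, with a median log2 difference of -0.61. Markers that passed as higher in EOM numbered 10 of 15 for fibroblasts, 5 of 6 for smooth muscle, 4 of 7 for adipocytes, 2 of 8 for endothelium, 3 of 6 for macrophages, 2 of 4 for lymphocytes and 7 of 9 for orbital gland epithelium. Those that passed as lower numbered 1 for smooth muscle and 0 for the other 6 of these lists, and slow fibres had 2 of 8 higher and 2 lower. The part of these cell types in the values below was not tested. Fewer cells of a type and less RNA per cell cannot be told apart in whole muscle.

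Aldh1l1 was measurable on every array of both muscles. In EOM, Aldh1l1 signal on replicates 1 to 4 was 241, 212.8, 267.8 and 255.1 units at 6 months, 227.7, 204, 283.9 and 289.6 units at 18 months, and 232.6, 259, 318.3 and 414.9 units at 30 months. In EDL it was 1570, 2055.5, 949 and 1048 units at 6 months, 1379.1, 1720.7, 1223.1 and 1192.8 units at 18 months, and 1667, 1995.1, 1358.8 and 1636.8 units at 30 months. Every EOM array lay below every EDL array, and the lowest EDL signal was 2.29 times the highest EOM signal. Mean signal was 5.76-fold lower in EOM at 6 months, 5.49-fold lower at 18 months and 5.44-fold lower at 30 months. The log2 difference, EOM minus EDL, averaged -2.46 over ages (SE 0.13). That difference was -2.91 within replicates 1 and 2 alone and -2.01 within replicates 3 and 4 alone.

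Aldh1l1 did not pass the test with age in either muscle. At 30 against 6 months in EOM, Aldh1l1 averaged 306 ± 80.8 and 244 ± 23.6 units (SD, n = 4 each). In EDL it averaged 1664 ± 260 units at 30 months and 1406 ± 512 units at 6 months. The fitted log2 change was 0.30 in each muscle, with 95% intervals of -0.17 to 0.76 in EOM and -0.17 to 0.77 in EDL. The age change in EOM less that in EDL was -0.01 on the log2 scale, with an interval of -0.66 to 0.65.

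Dhrs7c had EDL signals in the same range as Aldh1l1. In EOM, Dhrs7c signal on replicates 1 to 4 was 290.6, 411.1, 271.9 and 274.4 units at 6 months, 287.8, 370.7, 275.9 and 257.4 units at 18 months, and 328.1, 383.1, 304.3 and 286.7 units at 30 months. In EDL it was 1912.3, 1537.1, 1025.9 and 1459.9 units at 6 months, 2019.8, 1798, 1169.8 and 1663.7 units at 18 months, and 943.1, 1431.1, 1062.7 and 935.7 units at 30 months. No EOM array reached the lowest EDL array, which was 2.28 times the highest EOM array. Mean signal was 4.76-fold lower in EOM at 6 months, 5.58-fold lower at 18 months and 3.36-fold lower at 30 months. Averaged over ages, the log2 difference was -2.15 (SE 0.12).

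Within EDL, Dhrs7c averaged 1093 ± 233 units at 30 months and 1663 ± 360 units at 18 months (SD, n = 4 each), a ratio of 0.657. The log2 change was -0.60 (SE 0.21, 95% interval -1.04 to -0.16, limma adjusted p = 0.262), which did not pass. Arrays of the 2 ages overlapped, since replicate 2 at 30 months lay above replicate 3 at 18 months. At 30 against 6 months in EDL, Dhrs7c had a log2 change of -0.43 (interval -0.87 to 0.01, adjusted p = 0.496, limma). In EOM the corresponding change was 0.07 (interval -0.36 to 0.51), with means of 326 ± 41.9 units at 30 months and 312 ± 66.6 units at 6 months. The difference between these changes, EOM minus EDL, was 0.50 (interval -0.12 to 1.12).

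Abcb4 was measurable on every EDL array and dim on most EOM arrays. In EOM, Abcb4 signal on replicates 1 to 4 was 27.9, 23.8, 26.3 and 30.1 units at 6 months, 123.5, 17.4, 30 and 37.3 units at 18 months, and 124, 26.4, 39.7 and 34.8 units at 30 months. In EDL it was 338.8, 262.2, 381.5 and 399.3 units at 6 months, 138.7, 284.4, 318.6 and 172 units at 18 months, and 189.3, 219.3, 296.9 and 163.6 units at 30 months. The groups did not overlap, but the lowest EDL signal was only 1.12 times the highest EOM signal, since EOM replicate 1 stood apart at 18 and at 30 months. On 5 of the 12 EOM arrays Abcb4 lay at or below the floor, the 25th percentile of the array, where values have no order. At 6 months no EOM array exceeded its 40th percentile, the level taken as measurable, and with each EOM array set to no less than that level Abcb4 was at least 5.04-fold lower in EOM. At 18 and 30 months only EOM replicate 1 exceeded it, and mean signal was 4.39-fold and 3.86-fold lower in EOM. Without that replicate the mean signals in EOM and EDL were 28.2 and 228 units at 18 months, and 33.6 and 217 units at 30 months. Only a bound can then be given, of at least 2.87-fold lower in EOM at 18 months and at least 2.91-fold lower at 30 months. The log2 difference fitted with values at the floor averaged -2.68 over ages (SE 0.25).

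No age change of Abcb4 passed the test, and most of its EOM values were below the measurable level. At 30 against 6 months, Abcb4 averaged 56.2 ± 45.5 and 27.0 ± 2.66 units in EOM, and 217 ± 57.8 and 345 ± 61.0 units in EDL (SD, n = 4 each). The log2 changes were 0.74 in EOM (interval -0.16 to 1.65) and -0.69 in EDL (interval -1.59 to 0.22, limma adjusted p = 0.67). The age change in EOM less that in EDL was 1.43 (interval 0.15 to 2.71, limma adjusted p = 0.957). Without EOM replicate 1 at 30 months, the EOM change was 0.28 and the difference between changes was 0.96. At 18 against 6 months the difference between changes was 1.34 (limma adjusted p = 0.998), and 0.85 without EOM replicate 1 at 18 months.

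The Abcb4 probe set carries the array's suffix for probes that may match related transcripts. Its close relatives Abcb1a and Abcb1b, drug efflux pumps, were dim. Abcb1a averaged 43.2 ± 19.4 units in EOM and 31.5 ± 26.0 units in EDL (SD, n = 12 each), and Abcb1b lay at the floor on 11 of 12 arrays of each muscle. Neither reached the level required for testing. A further relative, Abcb11, did reach it and was also dim, at 50.3 ± 26.1 units in EOM and 66.7 ± 27.3 units in EDL. Its log2 difference was -0.45, the same direction as Abcb4, and did not pass (limma adjusted p = 0.169). Matching of the Abcb4 probes to related transcripts was not tested. Liver markers were checked beside Abcb4 and Aldh1l1, since both are abundant in that organ. None of 5 tested liver markers passed between the muscles. Their log2 differences ran from -0.46 (Ttr) to -0.03 (Cyp2e1), all in the direction of Abcb4 and Aldh1l1. The summed signal of all 8 liver markers on the array was 376.5 to 862.7 units in EOM and 467 to 1119.3 units in EDL. Fibrinogen beta (Fgb) lay at the floor on all EOM arrays but not on all EDL arrays. The part of liver transcripts in the Abcb4 and Aldh1l1 values was not tested.

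Vtcn1 was dim in EOM throughout. In EOM, Vtcn1 signal on replicates 1 to 4 was 24.8, 16.7, 41.2 and 27.7 units at 6 months, 16.9, 46.5, 39.3 and 40.6 units at 18 months, and 33.8, 43.5, 49.8 and 50.5 units at 30 months. In EDL it was 158.1, 237.3, 345 and 91.5 units at 6 months, 196.5, 213.7, 242.6 and 97.1 units at 18 months, and 155.1, 192.3, 205.5 and 115.5 units at 30 months. All EOM arrays lay below all EDL arrays, with the lowest EDL signal 1.81 times the highest EOM signal. No EOM array exceeded its 40th percentile for Vtcn1. Set to no less than that level, Vtcn1 was at least 2.74-fold lower in EOM at 6 months, at least 2.45-fold lower at 18 months and at least 2.32-fold lower at 30 months. The log2 difference fitted on the low EOM values averaged -2.29 (SE 0.21).

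No age change of Vtcn1 passed the test, and its EOM values were all below the measurable level. At 30 against 6 months, Vtcn1 averaged 44.4 ± 7.74 and 27.6 ± 10.2 units in EOM, and 167 ± 40.5 and 208 ± 109 units in EDL (SD, n = 4 each). The log2 changes were 0.61 in EOM (interval -0.15 to 1.38) and -0.19 in EDL (interval -0.95 to 0.58). Their difference was 0.80 (interval -0.28 to 1.88). In EDL, replicate 4 was the lowest and replicate 3 the highest of the 4 arrays at all 3 ages.

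Serpine2 had a modest signal in both muscles. In EOM, Serpine2 signal on replicates 1 to 4 was 91.7, 139.8, 64.5 and 135.7 units at 6 months, 61.9, 77.4, 102.7 and 95.5 units at 18 months, and 163, 41.5, 77.4 and 112.2 units at 30 months. In EDL it was 391.6, 200.7, 455.4 and 465.7 units at 6 months, 319.2, 389.2, 339.3 and 311.1 units at 18 months, and 311.9, 270.9, 224.1 and 269.5 units at 30 months. The muscles did not overlap, and the lowest EDL signal, replicate 2 at 6 months, was 1.23 times the highest EOM signal. Mean signal was 3.51-fold lower in EOM at 6 months, 4.03-fold lower at 18 months and 2.73-fold lower at 30 months. The log2 difference averaged -1.81 (SE 0.20).

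Serpine2 averaged 98.5 ± 51.8 units at 30 months and 108 ± 36.2 units at 6 months in EOM, and 269 ± 35.9 and 378 ± 123 units at those ages in EDL (SD, n = 4 each). The log2 changes were -0.23 in EOM (interval -0.95 to 0.48) and -0.43 in EDL (interval -1.14 to 0.29, limma adjusted p = 0.802). The EOM change less the EDL change was 0.19 (interval -0.82 to 1.20). Its probe set also carries the suffix for probes that may match more than 1 transcript. Schwann cells, the glia of peripheral nerve, are a known source of Serpine2, and 9 of 13 tested Schwann cell and nerve markers passed as higher in EOM and 1 as lower. The summed signal of all 14 such markers on the array was 7915.2 to 10370.3 units in EOM and 3017.7 to 4495.8 units in EDL. That is the opposite direction to Serpine2. The part of Schwann cells and nerve in the Serpine2 values was not tested.

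**Figure D1:**
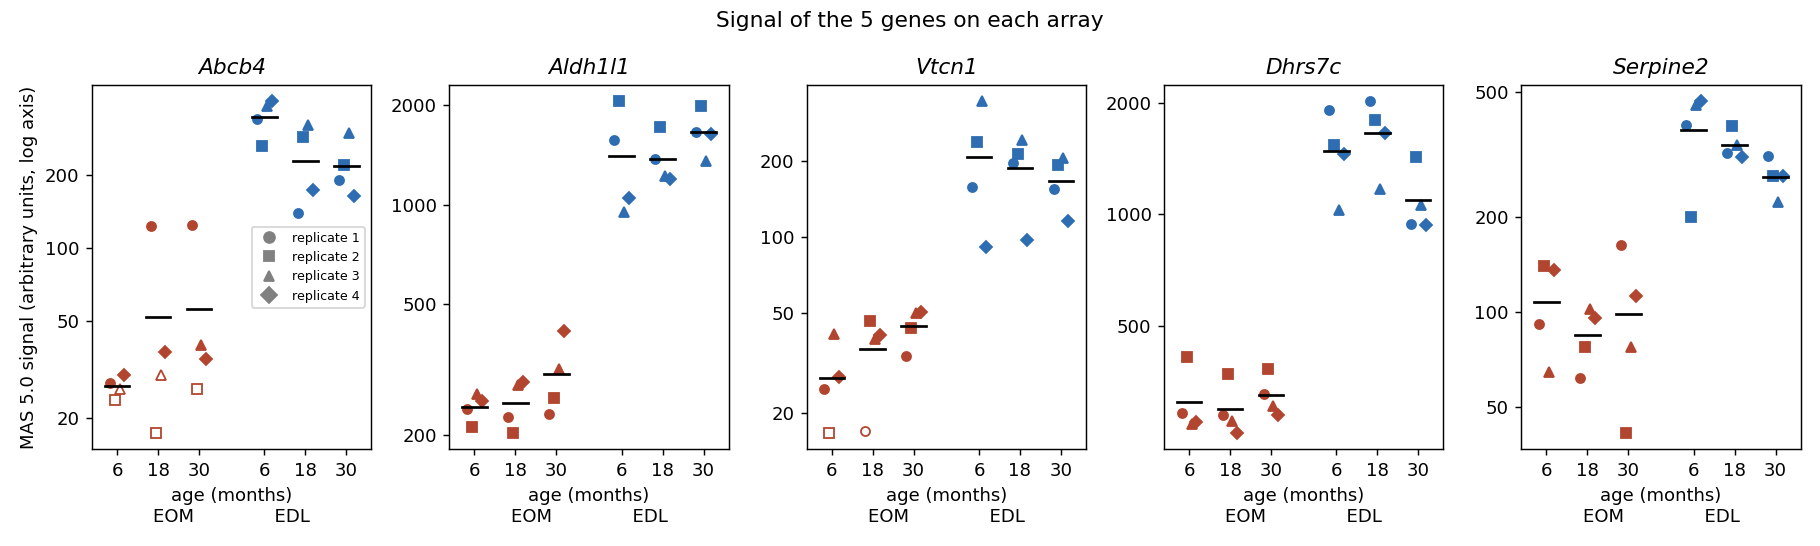
Signal of each gene on each array (arbitrary units, log axis) by age in months, with EOM left in red and EDL right in blue. Marker shapes are replicate numbers, bars are group means, and open markers lie at or below the array's 25th percentile. All 12 EOM arrays lie below all 12 EDL arrays for each of the 5 genes, with the narrowest gap for Abcb4.

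For 113 of 5741 probe sets tested, 1.97%, all 12 EOM arrays lay below all 12 EDL arrays, and the 5 genes are among them through their choice, so nothing is read from that count. Over all probe sets tested, 22.3% passed as higher and 20.0% as lower in EOM. All 5 genes passed the filter on low values. Abcb4 exceeded its array's 40th percentile on 2 of 12 EOM arrays and Vtcn1 on 0 of 12, against 12 of 12 EDL arrays for both, so they were tested through their EDL levels and had to differ. Serpine2 exceeded it on 9 of 12 EOM arrays, and Aldh1l1 and Dhrs7c on all 12.

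Age within a muscle did not enter the choice of genes, and 8 age comparisons were tested across all probe sets. None of the 5 genes passed an adjusted limma p of 0.05 in any of them, against 0.279% of all probe sets at 18 against 6 months in EDL, 1.86% at 30 against 6 months and 1.55% at 30 against 18 months. In EOM the share of all probe sets was 0.174% at 18 against 6 months, 0.0348% at 30 against 6 months and 0.0174% at 30 against 18 months. For the difference between changes the share was 0% at 18 against 6 months and 0.192% at 30 against 6 months. With shares this low, a count of 0 among 5 genes is near the background. At an unadjusted limma p under 0.05 the count of the 5 genes was 1 in EDL at 30 against 18 months (Dhrs7c), beside 9.34% of all probe sets. It was 1 in each test of the difference between changes (Abcb4), beside 4.41% of all probe sets at 18 against 6 months and 4.49% at 30 against 6 months. It was 0 in the other comparisons, where 2.30% to 10.5% of all probe sets reached that level.

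Across the 5 genes, log2 changes in EDL ran from -0.66 to 0.17 at 18 against 6 months, from -0.69 to 0.30 at 30 against 6 months and from -0.60 to 0.27 at 30 against 18 months. In EOM they ran from -0.31 to 0.68, from -0.23 to 0.74 and from 0.06 to 0.26 in the same order of ages. At 30 against 6 months the median of the 5 was -0.43 in EDL, beside 0.03 over all probe sets, and 0.30 in EOM, beside 0.01 over all probe sets. In every age comparison within a muscle, arrays of both ages overlapped for all 5 genes. The share of all probe sets that overlapped between ages was not counted, so nothing is read from that. With 4 arrays a group, a gene that did not pass was not shown to be unchanged. The intervals were widest for Abcb4, Vtcn1 and Serpine2.

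**Figure D2:**
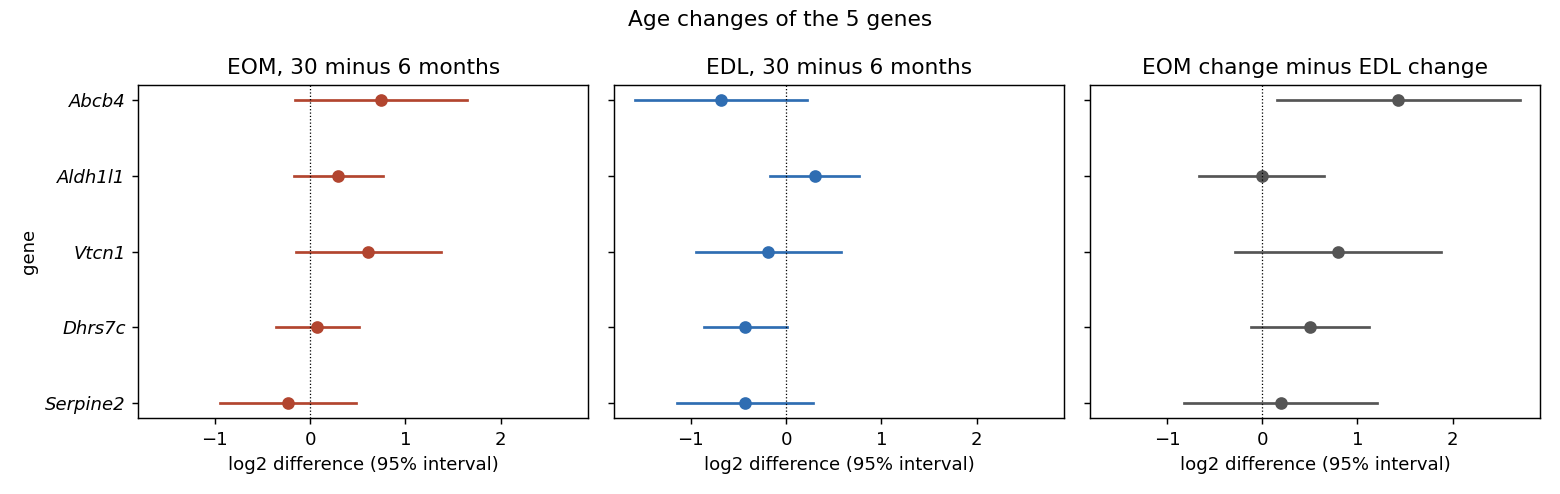
Fitted log2 change at 30 against 6 months for each gene in EOM and in EDL, and the EOM change less the EDL change, with 95% intervals not adjusted for multiple tests. Only the Abcb4 difference between changes, 1.43, has an interval that leaves out 0, and its adjusted p is 0.957.

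For some genes and muscles, picked after seeing the values, the same replicate number was highest or lowest at all 3 ages. Dhrs7c in EOM was highest in replicate 2 at all 3 ages, at 411.1, 370.7 and 383.1 units. Aldh1l1 in EDL was also highest in replicate 2 at all 3 ages, at 2055.5, 1720.7 and 1995.1 units. Vtcn1 in EDL was lowest in replicate 4 at all 3 ages, at 91.5, 97.1 and 115.5 units. In the other muscle the same replicate number did not hold that place at all 3 ages. Aldh1l1 in EOM was lowest in replicate 2 at 2 ages, and Dhrs7c in EDL was highest in replicate 1 at 2 ages. Dhrs7c in EDL was highest in replicate 2 at 1 age, and that replicate lay 0.09 to 0.41 above its group mean (log2) at all 3 ages. Vtcn1 in EOM was lowest in replicate 4 at 0 ages. Over all probe sets, arrays of the same number deviated together in part, with a correlation above 0.1 in 53 of 60 pairs. The sources used here do not say what a shared replicate number stands for.

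**Figure D3:**
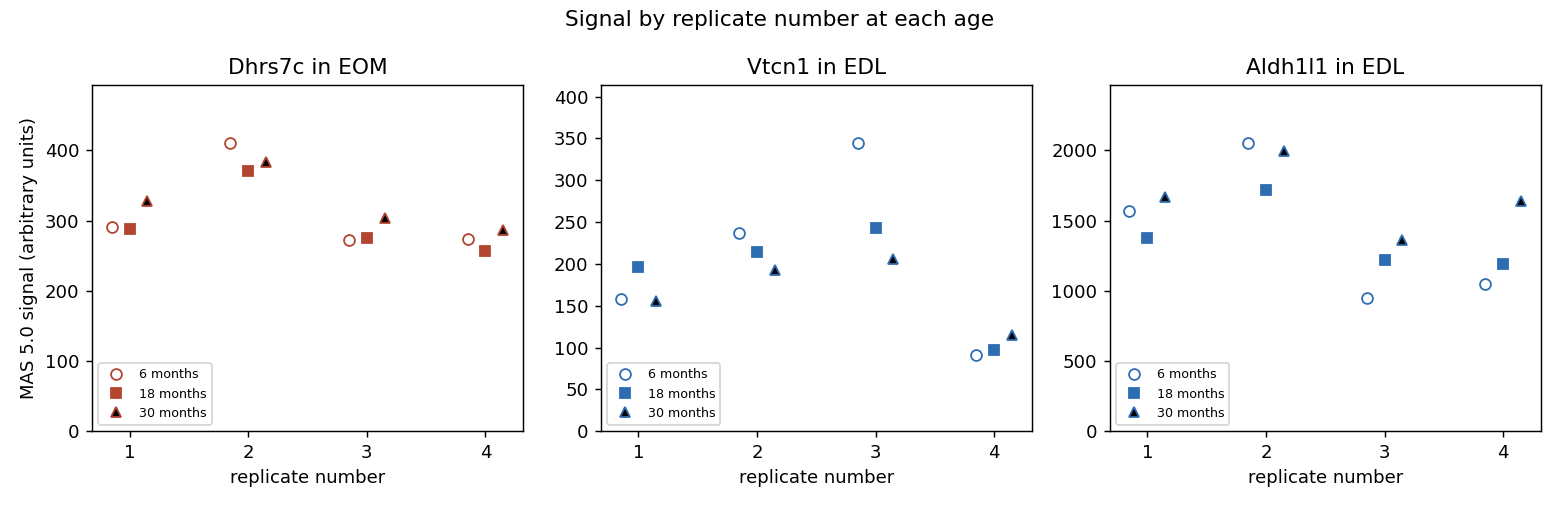
Signal in arbitrary units against replicate number for Dhrs7c in EOM, Vtcn1 in EDL and Aldh1l1 in EDL, with 1 marker per array and marker shape for age. Dhrs7c and Aldh1l1 are highest in replicate 2 and Vtcn1 is lowest in replicate 4 at 6, 18 and 30 months.

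Around each gene, a list of pathway neighbours was examined between the muscles. Across the 9 lists, 45 of 121 tested genes passed as higher in EOM and 18 as lower, beside 22.3% and 20.0% of all probe sets. The median log2 difference over all tested genes was -0.04.

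For Aldh1l1, 10 genes of folate and one-carbon metabolism were tested, and 1 fell in EOM against EDL while 9 did not pass, with a median of -0.12. The gene that fell was Ahcy, S-adenosylhomocysteine hydrolase, at a log2 difference of -0.48. Of 8 other aldehyde dehydrogenases, 4 rose and 1 fell in EOM, with a median of 0.31. The log2 difference was 3.71 for Aldh3a2, which oxidises fatty aldehydes, 0.82 for Aldh3a1, and -0.76 for Aldh5a1, which makes succinate from succinic semialdehyde. Aldh3a2 averaged only 50.7 units in EDL, below the measurable level of 53.8 to 83.8 units. A gene this dim in EDL can enter the test through its EOM level alone, which favours a difference. The size of the Aldh3a2 difference is therefore uncertain.

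For Dhrs7c, 11 of 19 other short-chain dehydrogenases rose in EOM and 2 fell, with a median of 0.59. Bdh1, which interconverts ketone bodies, was higher by 3.32, and Hsd11b1, which regenerates active glucocorticoid, by 3.28. The 2 that fell were Rdh7 at -0.70 and Hsd17b8 at -0.57 (log2). Of 25 genes of the sarcoplasmic reticulum and calcium release, 6 rose and 10 fell in EOM, with a median of -0.18. Among them, the SERCA inhibitor phospholamban (Pln) was higher by 2.53 and cardiac calsequestrin (Casq2) by 1.53. The calcium channel subunit Cacng1 stood at -1.64 and the kinase Camk2a at -1.72 (log2). Means near or below the measurable level were those of Bdh1 (54.3 units) and Pln (36.1 units) in EDL. The same held for Camk2a (53.6 units) and Rdh7 (42.9 units) in EOM. Such genes can enter the test through the brighter muscle alone, which favours a difference. The sizes of their differences are therefore uncertain.

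For Abcb4, 2 of 9 other ABC transporters rose in EOM and 1 fell, with a median of -0.04. These were peroxisomal Abcd3 at 0.81, the peptide transporter Tap2 at 0.40 and Abcb6 at -0.40. Of 11 genes of phospholipid synthesis and transfer, 3 rose and 1 fell, with a median of 0.21. Cds1, a CDP-diacylglycerol synthase, was higher by 2.58 and the transfer protein Pitpnb by 0.98, while Pcyt1a, the rate-limiting enzyme of phosphatidylcholine synthesis, fell by 1.09 on the log2 scale.

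For Vtcn1, only 3 genes of the B7 family and T cell co-signalling list were tested. Cd48, an adhesion ligand of immune cells, was higher in EOM by 0.88, and Ctla4, an inhibitory T cell receptor, fell by 0.90 on the log2 scale. For Serpine2, 8 of 18 genes of the serpin, plasminogen and thrombin list rose in EOM and 0 fell, with a median of 0.31. They included the tissue plasminogen activator Plat, which Serpine2 is known to inhibit, at 1.36, and the C1 inhibitor Serping1 at 1.33.

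Serpine2 is also known from the neuromuscular junction, and 10 of 18 genes of the junction and denervation list rose in EOM and 1 fell, with a median of 0.51. Averaged over ages, the acetylcholine receptor subunits Chrnd and Chrne stood at 1.43 and 1.30, and the transcription factor Runx1 at -0.82 (log2). The averages of Chrnd and Runx1 hide a rise with age in EDL. Chrnd averaged 882 units in EOM and 283 units in EDL at 6 months, but 1188 and 1172 units at 30 months. Runx1 averaged 291 units in EOM and 421 units in EDL at 6 months, and 358 and 1508 units at 30 months.

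**Figure D4:**
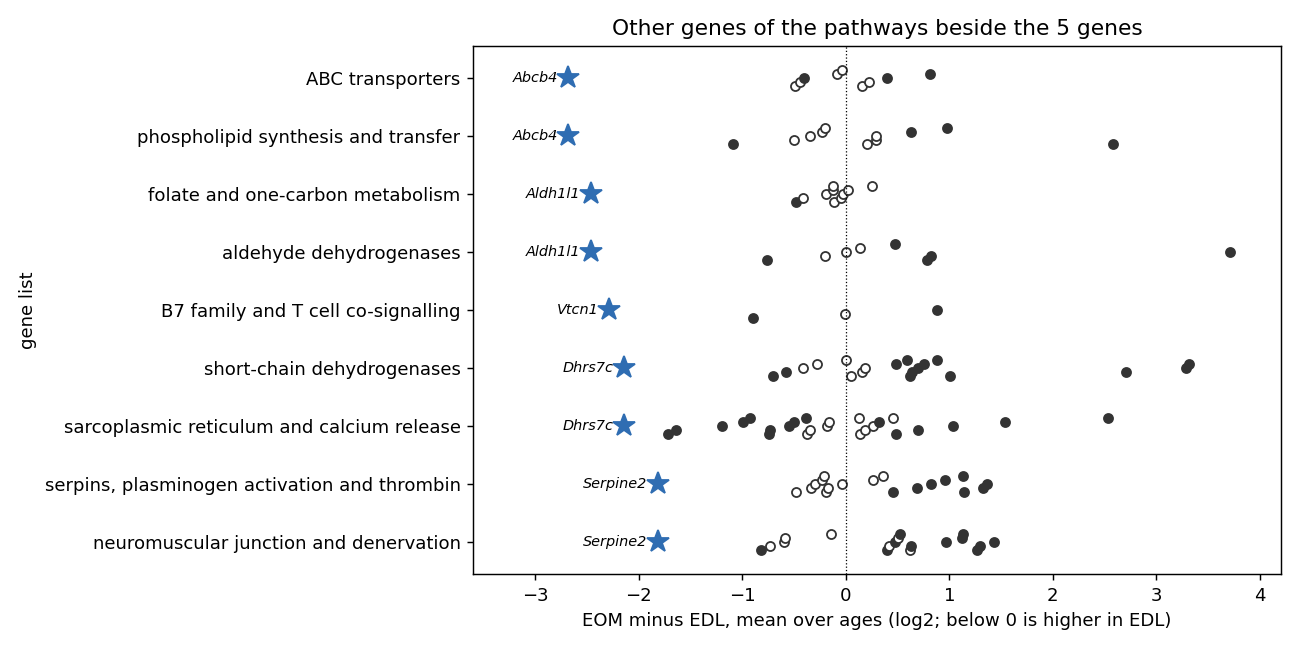
Log2 difference, EOM minus EDL, of each tested gene in the 9 lists. Filled points passed an adjusted p of 0.05, open points did not, and stars mark the 5 chosen genes, which were not tested. The stars lie between -2.68 and -1.81, below every other gene drawn in their lists. The choice of the 5 genes by this difference favours that place, so nothing is read from it. The Abcb4 and Vtcn1 stars rest on low EOM values.

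With age, 8 of those 121 genes rose and 0 fell in EDL at 30 against 6 months, beside 1.48% of all probe sets that rose and 0.383% that fell. With each array's median as its scale, the split over all probe sets was 55 higher and 26 lower, against 85 higher and 22 lower here. All 8 belonged to the junction and denervation list, whose 18 tested genes had a median of 0.88. Gadd45a, a stress gene induced by denervation, rose by 3.27 (limma adjusted p = 2.38e-08), and the myogenic factor Myog rose by 3.21 (adjusted p = 0.00436). Within replicates 3 and 4 alone, 1 of the 121 genes rose. With EDL replicate 1 or 4 at 6 months or replicate 2 at 18 months left out, 1 gene fell. Among the marker lists, 3 of 9 orbital gland genes rose in EDL between these ages, where their summed signal was 2913.4 to 7438.7 units at 30 months and 371.9 to 813.5 units at 6 months, while 4 of 15 fibroblast genes and 1 of 8 slow fibre genes fell. The part of these changes in the list's count was not tested. In EOM at those ages 0 of 121 rose and 0 fell, beside 0.0348% and 0% of all probe sets.

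Finally, the genes with the most similar pattern over the 6 groups were sought, as the smallest mean absolute difference in log2 between group means centred per gene, among 3414 genes. Serpine2 lay closest to Eef2k, a kinase of elongation factor 2, at 0.06, then to Padi2 at 0.14 and Ube2g1 at 0.16, against a median of 0.89 over all genes. For Dhrs7c the 3 nearest were Padi2 at 0.14, Slc16a3, a lactate transporter, at 0.16 and Ube2g1 at 0.19, with a median of 1.05. Vtcn1 lay nearest to Ppp1r1a, an inhibitor of protein phosphatase 1, at 0.13, then to Comp at 0.19 and Padi2 at 0.23, with a median of 1.12. Abcb4 had Ppp1r1a at 0.31, Comp at 0.36 and Car3, the muscle carbonic anhydrase, at 0.39, with a median of 1.32. Aldh1l1 had Ttn, the giant sarcomere protein titin, at 0.21, Amhr2 at 0.23 and Comp at 0.24, with a median of 1.21. In EOM, group means were 22.2 to 65.7 units for Ttn, 16.8 to 26.6 units for Amhr2 and 43.5 to 65.3 units for Comp. These lie near or below the measurable level of 53.8 to 83.8 units. The likeness of Ttn, Amhr2 and Comp to the chosen genes is therefore uncertain. Between the 5 genes themselves the same measure ran from 0.17, for Dhrs7c with Serpine2 and for Aldh1l1 with Vtcn1, to 0.43 for Abcb4 with Serpine2. The muscle difference that chose the genes dominates this measure.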

How the data were processed

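RNA of 24 pools was hybridised to 1-colour Affymetrix Rat Genome U34 arrays, per the series' design text. The authors deposited 1 linear intensity for each probe set on each array, made with MAS5 per the submitters' processing notes. After 59 controls were removed, values below each array's 25th percentile (21.4 to 34.5 units) were set to it and log2 was taken, so a fold near that floor is understated. Testing was limited to 5741 probe sets above the 40th percentile of signal (53.8 to 83.8 units) on 3 or more arrays of any group. A model of the 6 group means over all arrays was fitted with limma 3.58.1 in R 4.3.3 (eBayes with trend), with 18 residual degrees of freedom and two-sided p-values adjusted by Benjamini-Hochberg over all probe sets tested. A gene passed at an adjusted p under 0.05, and rose or fell is written only of those. The fit was tested on simulated data.

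The 5 genes, the 9 pathway lists and the 12 marker lists were chosen with earlier results of these data known, so list counts are descriptions. Named genes are the 5 and, per pathway list and comparison, the 2 largest rises and 2 largest falls among genes that passed, each by its brightest probe set. For likeness the 3 nearest genes were named. Alternatives covered the scaling, floor, filter, variance model, array weights, each muscle alone, a replicate block, replicates 1 and 2 or 3 and 4 alone and each array left out. Lower bounds for Abcb4 and Vtcn1, and Abcb4 folds without EOM replicate 1, were added after seeing the data. Neither scanner files nor detection calls were used. The number of arrays limits the precision.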

Additional observations from a re-analysis of the deposited data

Results flagged for a closer look

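Of 30 groups of 4 arrays examined, 2 held an array far from its other 3, and chance alone gives about 1 in 20. Abcb4 in EOM at 30 months was 124 units on replicate 1 and 26.4 to 39.7 units on the other 3 arrays. At 18 months the same replicate number was also the highest, at 123.5 units. Dhrs7c in EOM at 6 months was 411.1 units on replicate 2 and 271.9 to 290.6 units on the other 3 arrays.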

How the results depend on the processing

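In age comparisons the count of the 5 genes past the threshold stayed at 0 under all alternatives except the replicate block, where it was 1 in EDL at 30 against 18 months: Dhrs7c at -0.60 (SE 0.16, limma adjusted p = 0.0498, against 0.0936 to 0.99 without the block). Arrays of the same number deviated together in part, with a correlation above 0.1 in 53 of 60 pairs and 21 of 24 arrays closest to their own number, a hint from the data and not from the design. Over all probe sets the block gave 172 calls in EDL at 30 against 6 months, 147 at 30 against 18 and 35 at 18 against 6, against 107, 89 and 16 without it. EDL arrays alone gave 55, 42 and 1. Over all alternatives these counts ran from 5 to 180, 2 to 147 and 0 to 80. In EOM they ran from 0 to 4 at 30 against 6 months (2 in the report), 0 to 12 at 30 against 18 (1) and 0 to 44 at 18 against 6 (10). For the difference between changes they ran from 1 to 34 at 30 against 6 months (11) and 0 to 3 at 18 against 6 (0).

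Signs of small age changes at 30 against 6 months were not stable, and the cause was not tested. With replicates 1 and 2 alone, Serpine2 was 0.0522 in EDL and -0.51 for the EOM change less the EDL change, and Aldh1l1 was 0.0944 for that difference, or 0.10 with median centring. Median centring moved the median of all probe sets in EDL to -0.12, against 0.03. Leaving out 1 array at a time gave -0.53 to 0.11 for Vtcn1 in EDL (highest without EDL replicate 3 at 6 months), -0.0064 to 0.21 for Dhrs7c in EOM and -0.53 to 0.13 for Serpine2 in EOM, the last 2 changing sign without EOM replicate 2 at 30 months. For the difference between changes it gave -0.21 to 0.16 for Aldh1l1 and -0.11 to 0.55 for Serpine2. Abcb4 and Vtcn1 lie near the floor in EOM, which limits their changes there.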
